A study of Mus musculus with 20 samples.

Results

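The genes described here encode the 26S proteasome and the factors that build it: the subunits of the constitutive 20S core particle and of the 19S cap, their assembly chaperones, the alternative activators Psme3 and Psme4, the regulator Psmf1, and the transcription factor Nfe2l1 and the unfoldase Vcp. A probe set of the array belonged to this set when its gene symbol in the platform annotation was exactly 1 of 45 listed symbols, a rule that uses no measured value. The list of symbols itself was drawn up with earlier results of these data known. Of these 45 genes, 44 had a probe set that named no other gene and were measured, of 18193 genes measured in that way, and the 44 genes had 97 of the 45037 probe sets. The gene left without such a probe set was Adrm1, the 19S ubiquitin receptor, and no value is given for it. The genes lie on 16 chromosomes, 9 of them on chromosome 11.

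Livers came from 9-week-old male mice that had received CMP013, a small-molecule inhibitor of the secretase BACE1, or its vehicle by oral gavage every 24 h, and were collected at 96 h after a short fast. The 4 groups of 5 animals were WT mice (PXR+/+, strain C57BL/6) given CMP013 at 150 mg/kg/day, WT mice given vehicle (0 mg/kg), PXR-KO mice (PXR-/-, on C57BL/6NTac) given CMP013 at 150 mg/kg/day, and PXR-KO mice given vehicle. PXR is the pregnane X receptor, a nuclear receptor that senses foreign compounds in hepatocytes. Pieces of liver from individual animals were hybridised to Affymetrix Mouse430_2 arrays, 1 array per animal, so every n below counts animals. The knockout line is given a different C57BL/6 substrain name than the WT mice, so that genotype and background cannot be told apart.

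The proteasome is the protease that degrades ubiquitin-tagged proteins in the cytosol and nucleus. Its barrel-shaped 20S core has outer rings of alpha subunits, which gate the entrance, and inner rings of beta subunits, of which Psmb5, Psmb6 and Psmb7 carry the active sites. The 19S cap binds the tagged protein, removes the ubiquitin and feeds the unfolded chain into the core by means of ATPases. In mammals the transcription factor NRF1, the product of Nfe2l1, raises the expression of proteasome subunit genes together when proteasome activity is short, through antioxidant response elements, and the unfoldase p97, the product of Vcp, helps to release it from the endoplasmic reticulum.

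Each value is the log2 ratio of 1 animal to the average vehicle animal of its own genotype (5 animals), so that 0 is the vehicle level and 1 is 2-fold above it. Ratios within a genotype hold no level, so neither the level of the deleted gene nor a comparison of the genotypes under vehicle is given. The median of all probe sets on single arrays lay between -0.03 and 0.01, and the highest correlation between any 2 arrays was 0.593. Among the treated animals the values of WT CMP013 replicate 5 spread most (SD over probe sets 0.704) and those of PXR-KO CMP013 replicate 3 spread least (SD 0.467), and among vehicle animals PXR-KO vehicle replicate 2 spread most (SD 0.463). In earlier results of these data 4 vehicle animals stood apart, replicates 3 and 4 in WT and replicates 2 and 4 in PXR-KO mice, and the counts of proteasome genes are therefore also given without them. The labels report RNA integrity numbers of 9.3 to 10 for the PXR+/+ livers and 8.7 to 9.6 for the PXR-/- livers.

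The first comparison asked what CMP013 did to the proteasome genes in WT livers. They rose almost as a whole: 36 of 44 were higher in WT CMP013 than in WT vehicle livers at an adjusted p under 0.05 (limma, Benjamini-Hochberg over all probe sets), 1 was lower and 7 did not pass. Over all genes 9.36% were called higher and 7.87% lower. The median log2 fold change of the 44 genes was 0.63, or 1.55-fold, against -0.0025 over all genes. Psmd5, Psma7, Psmc4 and Psmd14 changed most, and Psmd13 was the gene called lower, on a probe set that other probe sets of the same gene contradict. In 36 genes every WT CMP013 animal lay above every WT vehicle animal, which held for 9.77% of all genes. Without WT vehicle replicates 3 and 4 the count was 32 higher and 0 lower.

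**Figure D1:**
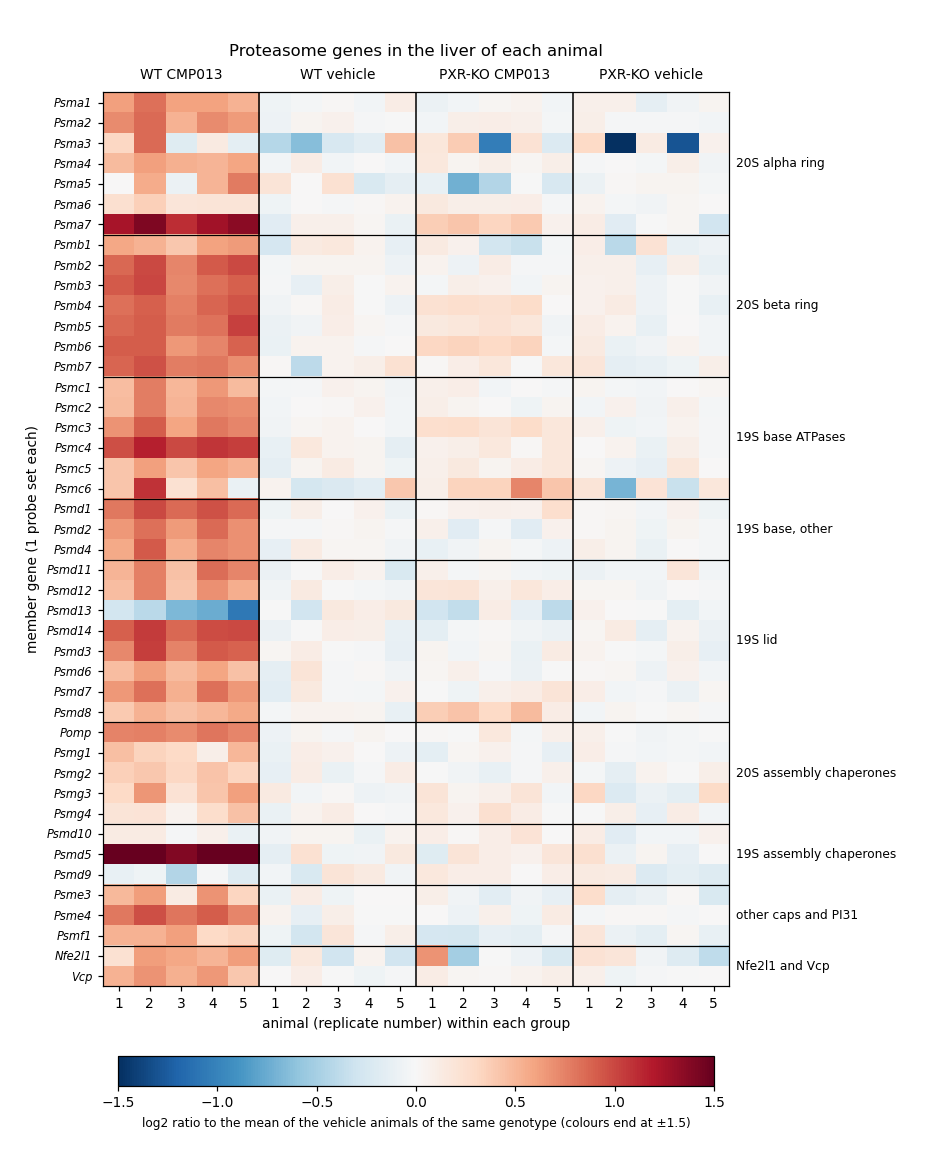
Log2 ratio to the vehicle mean of the same genotype (colour) for 44 proteasome genes (rows, by sub-complex) in 20 animals (columns, 5 per group). The WT CMP013 columns are red in most rows, with Psmd5 and Psma7 darkest and Psmd13 blue, while the PXR-KO CMP013 columns are close to the vehicle columns.

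The animals of the WT CMP013 group moved together. The median over the 44 genes was 0.52, 0.77, 0.53, 0.68 and 0.64 in the 5 WT CMP013 animals, against -0.06, 0.04, 0.05, 0.01 and -0.04 in the 5 WT vehicle animals. All 5 treated animals were therefore far above all 5 vehicle animals. Replicate 2 of WT CMP013 had the highest value of its group for 26 genes and replicate 3 the lowest for 26. The study counted an animal as changed from a log10 ratio of 0.097 upward. By that size alone 30 genes were up in all 5 WT CMP013 animals, 3 in 4 and 5 in 3, and no WT vehicle animal had more than 2 genes up. The share of all genes past that size was not computed, so these counts only describe the proteasome genes. Each vehicle animal is also part of the mean to which it is compared, which draws its ratios toward 0. The probe sets used for the proteasome genes also varied little among vehicle animals: the median SD within the vehicle groups was 0.087, against 0.229 over all 18193 genes. For every gene the probe set was chosen in part by the smallest such SD. Dim probe sets were kept, and signal levels were not compared.

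Because NRF1 acts through antioxidant response elements, the promoters of the genes were searched for the core of that element. RefSeq promoter windows (GRCm38.p6, 250 bases before to 50 after the start site) were at hand for 38 of the 45 genes. The letters TGACNNNGC, read on both strands, occurred in a window of 8 of these 38 genes, or 21.1%, against 14.0% of the 27025 genes with a window. The general promoter motif CCAAT occurred in 15 of 38, or 39.5%, against 41.1% of all genes. Of the genes that rose in WT livers and had a window, 4 had the core before the start site. For each of them 80 bases are shown, with the match in capitals and all letters 5′ to 3′ on the strand of the gene. The windows are chr14:54617996-54618075 on the minus strand for Psmb5, chr11:70525277-70525356 on the plus strand for Psmb6, chr11:107479278-107479357 on the plus strand for Psmd12, and chr4:43000552-43000631 on the minus strand for Vcp.
Psmb5: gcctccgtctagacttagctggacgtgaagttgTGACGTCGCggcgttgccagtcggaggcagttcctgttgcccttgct
Psmb6: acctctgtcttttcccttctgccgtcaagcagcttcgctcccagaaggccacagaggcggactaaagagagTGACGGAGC
Psmd12: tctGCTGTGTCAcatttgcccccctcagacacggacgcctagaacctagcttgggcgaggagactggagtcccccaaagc
Vcp: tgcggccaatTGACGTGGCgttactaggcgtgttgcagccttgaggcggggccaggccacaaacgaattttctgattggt
The match reads forward in Psmb5, Psmb6 and Vcp, and in Psmd12 it lies on the opposite strand, so that its reverse complement is printed. In Psmb5 and Psmb6, which encode catalytic subunits, it lies within the last 50 bases before the start site, and in Psmd12 it lies near the far end of the window. Psme4, which rose too, had a match that ran across the start site. Psmc6 and Psmd9, which did not pass the test in WT livers, and Adrm1 also had one. Sequences are shown for called genes only, and genes without a window could not be searched. Whether the core goes with the rise was not tested. A match is only a run of letters and no binding was measured.

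In the outer ring of the core, 4 of the 7 alpha subunits rose in WT livers, with a median log2 fold change of 0.54. Psma7, the alpha4 subunit, changed most: it had values of 1.23, 1.40, 1.11, 1.255 and 1.35 in the 5 WT CMP013 animals, against -0.17, 0.07, 0.08, 0.03 and -0.10 in the 5 WT vehicle animals. The groups lay far apart with no overlap, a 2.44-fold rise (log2 fold change 1.29 ± 0.09, adjusted p = 3.74e-05). Psma2 had 0.71, 0.85, 0.52, 0.71 and 0.64 in WT CMP013 and -0.08, 0.04, 0.06, -0.01 and -0.01 in WT vehicle livers, again with no overlap (0.69 ± 0.08, adjusted p = 0.000687). Psma6 was the alpha subunit that changed least, with 0.24, 0.35, 0.18, 0.19 and 0.19 in WT CMP013 and -0.06, 0.01, -0.01, 0.01 and 0.06 in WT vehicle livers. Every treated animal lay above every vehicle animal, yet the change did not pass the test (0.23 ± 0.07, adjusted p = 0.0638). Psma1 (0.63) and Psma4 (0.54) rose as well. Psma3 (0.40 ± 0.24, adjusted p = 0.328) and Psma5 (0.34 ± 0.18, adjusted p = 0.261) had values that overlapped between the groups on the probe sets used here.

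All 7 beta subunits of the inner ring rose in WT livers, with a median log2 fold change of 0.86, or 1.81-fold, and a range of 0.56 to 0.90. The 3 catalytic subunits lay close together. Psmb5, which carries the chymotrypsin-like site, had 0.86, 0.91, 0.78, 0.81 and 1.02 in WT CMP013 animals, against -0.09, -0.05, 0.10, 0.03 and -0.01 in WT vehicle animals (0.88 ± 0.08, adjusted p = 0.000132). Psmb6, with the caspase-like site, had 0.91, 0.91, 0.65, 0.73 and 0.88 in WT CMP013 and -0.10, 0.05, 0.05, -0.02 and 0.01 in WT vehicle animals (0.82 ± 0.08, adjusted p = 0.000265). Psmb7, with the trypsin-like site, had 0.87, 0.95, 0.77, 0.79 and 0.70 in WT CMP013 and 0.01, -0.39, 0.05, 0.08 and 0.23 in WT vehicle animals (0.82 ± 0.12, adjusted p = 0.00175). In none of the 3 did the groups overlap, although 1 vehicle animal lay low for Psmb7. Among the structural subunits Psmb2 had 0.86, 1.00, 0.74, 0.92 and 1.00 in WT CMP013 and -0.03, 0.04, 0.04, 0.04 and -0.08 in WT vehicle livers, a 1.87-fold rise (0.90 ± 0.08, adjusted p = 0.000118). Psmb3 was almost the same, with 0.92, 1.00, 0.72, 0.83 and 0.89 in WT CMP013 and -0.02, -0.12, 0.09, -0.01 and 0.05 in WT vehicle livers (0.88 ± 0.08, adjusted p = 0.000161). Psmb1 rose least of the ring, with 0.58, 0.52, 0.40, 0.60 and 0.64 in WT CMP013 and -0.26, 0.13, 0.16, 0.05 and -0.12 in WT vehicle livers (0.56 ± 0.10, adjusted p = 0.00627), and Psmb4 rose by 0.86. No treated animal overlapped a vehicle animal for any of these 4 genes.

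Of the 6 ATPases at the base of the 19S cap, 5 rose in WT livers (median log2 fold change 0.60). Psmc4, the subunit known as Rpt3, rose 2.06-fold, with values of 0.97, 1.17, 0.99, 1.07 and 1.03 in WT CMP013 animals, against -0.11, 0.15, 0.05, 0.04 and -0.13 in WT vehicle animals (1.05 ± 0.09, adjusted p = 8.29e-05). Psmc3, or Rpt5, had 0.67, 0.91, 0.59, 0.79 and 0.73 in WT CMP013 and -0.05, 0.03, 0.05, 0.0034 and -0.04 in WT vehicle animals (0.74 ± 0.08, adjusted p = 0.000443). Neither gene showed any overlap, and Psmc1 (0.57), Psmc2 (0.63) and Psmc5 (0.51) rose without overlap too. Psmc6 had 0.42, 1.09, 0.23, 0.46 and -0.09 in WT CMP013 and 0.05, -0.26, -0.21, -0.16 and 0.40 in WT vehicle animals. The spread of Psmc6 within both groups was wide, the groups overlapped and the change did not pass (0.46 ± 0.21, adjusted p = 0.201).

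The 3 measured non-ATPase subunits of the base all rose, between 0.69 and 0.89 on the log2 scale. Psmd1, the large scaffold Rpn2, had 0.79, 0.99, 0.85, 0.95 and 0.85 in WT CMP013 animals, against -0.06, 0.09, 0.01, 0.06 and -0.10 in WT vehicle animals (0.89 ± 0.08, adjusted p = 0.000116). Psmd2, the scaffold Rpn1, had 0.65, 0.82, 0.64, 0.85 and 0.69 in WT CMP013 and -0.02, -0.02, 0.02, 0.04 and -0.02 in WT vehicle animals (0.73 ± 0.08, adjusted p = 0.000301). Psmd4, a ubiquitin receptor, had 0.56, 0.92, 0.55, 0.73 and 0.69 in WT CMP013 and -0.13, 0.13, 0.03, 0.03 and -0.06 in WT vehicle animals (0.69 ± 0.10, adjusted p = 0.00141). All 5 treated animals exceeded all 5 vehicle animals for each of the 3 genes.

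In the lid, which covers the base and cuts off ubiquitin, 7 of 8 genes rose in WT livers and 1 was called lower (median log2 fold change 0.63). Psmd14, the deubiquitinating enzyme Rpn11, had 0.90, 1.05, 0.86, 0.97 and 0.99 in WT CMP013 animals, against -0.09, -0.01, 0.10, 0.09 and -0.11 in WT vehicle animals, a 1.94-fold rise (0.96 ± 0.08, adjusted p = 9.39e-05). Psmd3 had 0.72, 1.04, 0.75, 0.92 and 0.88 in WT CMP013 and 0.03, 0.11, -0.01, -0.01 and -0.13 in WT vehicle animals (0.86 ± 0.09, adjusted p = 0.000273). Both were well clear of the vehicle values, and Psmd7 (0.70), Psmd11 (0.69), Psmd12 (0.57), Psmd6 (0.52) and Psmd8 (0.49) followed, also without overlap. Psmd13, the subunit Rpn9, went the other way on the probe set that stands for it, with -0.27, -0.41, -0.67, -0.74 and -1.07 in WT CMP013 and -0.01, -0.29, 0.15, 0.10 and 0.15 in WT vehicle animals (-0.65 ± 0.16, adjusted p = 0.0209). The lowest vehicle animal lay within the treated range, and the call was lost without WT vehicle replicate 3 (-0.62, adjusted p = 0.053) or replicate 5 (-0.62, adjusted p = 0.0511).

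**Figure D2:**
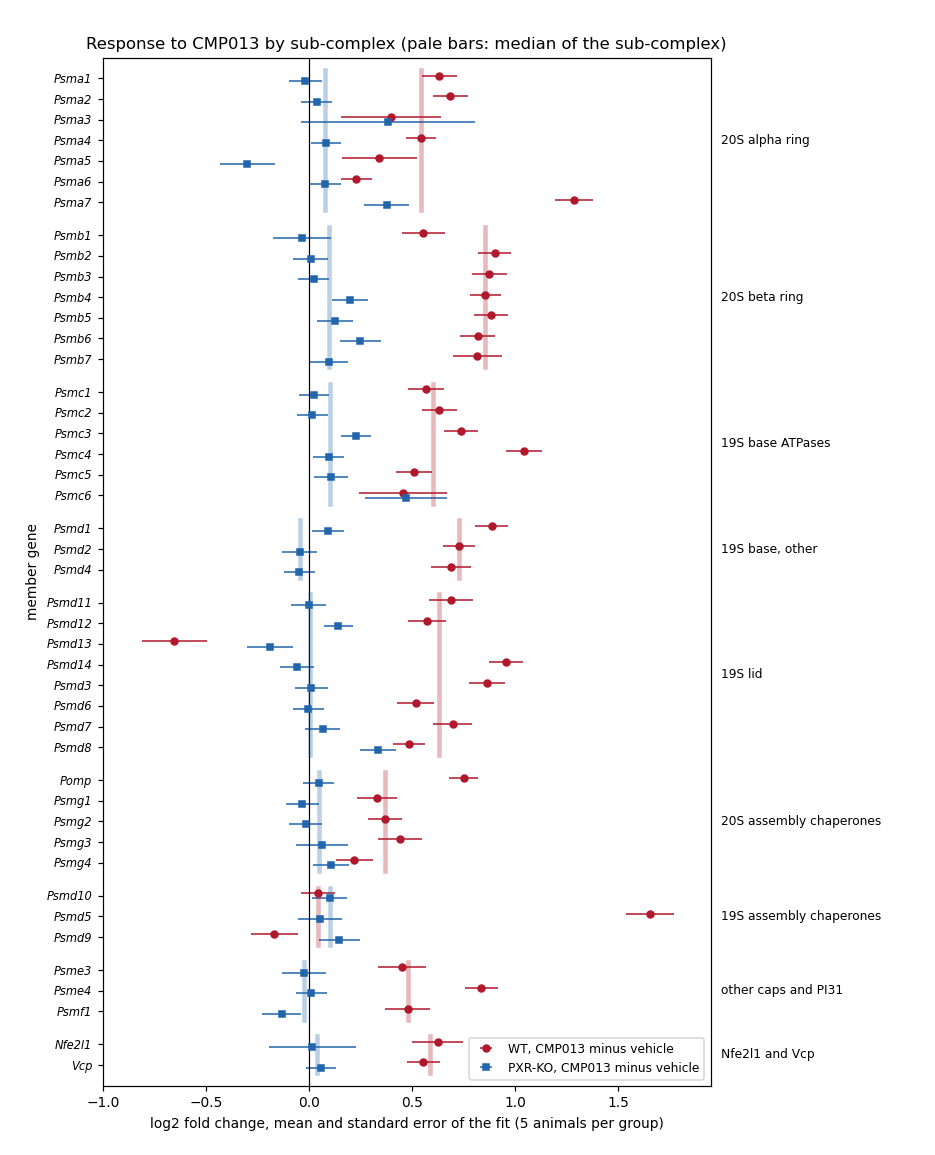
Log2 fold change of CMP013 minus vehicle (horizontal axis, with the standard error of the fit, 5 animals per group) for each of 44 proteasome genes, with WT as red circles and PXR-KO as blue squares, and with the median of each sub-complex as a pale bar. The WT medians run from 0.04 for the 19S assembly chaperones to 0.86 for the beta ring, and the PXR-KO medians stay between -0.05 and 0.10.

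Of the assembly chaperones 5 of 8 were higher in WT livers. Among those of the core, 4 of 5 rose. Pomp, which guides the beta subunits into place and is degraded as the first substrate of the finished core, had 0.75, 0.76, 0.71, 0.81 and 0.74 in WT CMP013 animals, against -0.08, 0.04, -0.01, 0.04 and 0.00013 in WT vehicle animals (0.75 ± 0.07, adjusted p = 0.00014). The 5 treated animals of Pomp lay very close together and clear of the vehicle animals. Psmg3 had 0.30, 0.66, 0.22, 0.41 and 0.61 in WT CMP013 and 0.14, -0.04, 0.02, -0.07 and -0.06 in WT vehicle animals (0.44 ± 0.11, adjusted p = 0.0206). The mean over the probe sets of Psmg3 did not pass (0.15, adjusted p = 0.318). Psmg2 (0.37) and Psmg1 (0.33 ± 0.10, adjusted p = 0.0473) also passed, the call of Psmg1 only barely, with 1 treated animal among the vehicle values. That call was lost when any animal but WT CMP013 replicate 4 was left out (adjusted p up to 0.109). Psmg4 had 0.19, 0.20, 0.06, 0.26 and 0.44 in WT CMP013 and -0.10, 0.05, 0.11, 0.01 and -0.02 in WT vehicle animals, which overlapped and did not pass (0.22 ± 0.09, adjusted p = 0.147). The Psmg proteins work as pairs that line up the alpha ring, Psmg1 with Psmg2 and Psmg3 with Psmg4.

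The chaperones of the 19S base differed widely from each other. Psmd5, which binds the base ATPase Psmc2 during assembly, had the largest change of all 44 genes, 3.15-fold, with 1.67, 1.90, 1.39, 1.72 and 1.74 in WT CMP013 animals, against -0.13, 0.23, -0.07, -0.05 and 0.15 in WT vehicle animals (1.66 ± 0.12, adjusted p = 3.53e-05). Psmd10, also called gankyrin, had 0.12, 0.12, -0.01, 0.08 and -0.10 in WT CMP013 and -0.06, 0.04, 0.04, -0.10 and 0.05 in WT vehicle animals (0.04 ± 0.08, adjusted p = 0.783). Psmd9 had -0.11, -0.07, -0.44, -0.02 and -0.20 in WT CMP013 and -0.04, -0.22, 0.20, 0.14 and -0.06 in WT vehicle animals (-0.17 ± 0.11, adjusted p = 0.391). Only Psmd5 of these 3 stood clear of its vehicle group, and the values of Psmd10 and Psmd9 overlapped theirs.

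The other caps and the regulator PI31 rose in WT livers, 3 of 3. Psme4, the activator PA200, had 0.79, 0.96, 0.80, 0.91 and 0.73 in WT CMP013 animals, against 0.05, -0.12, 0.09, -0.0014 and -0.01 in WT vehicle animals (0.84 ± 0.08, adjusted p = 0.00018). Psmf1, which encodes PI31, had 0.52, 0.53, 0.62, 0.30 and 0.34 in WT CMP013 and -0.07, -0.28, 0.18, -0.02 and 0.08 in WT vehicle animals (0.48 ± 0.11, adjusted p = 0.0162). Only this 1 of its 4 probe sets was called, and the mean over all of them did not pass (0.06, adjusted p = 0.782). Psme3, the nuclear activator PA28gamma, had 0.48, 0.63, 0.13, 0.67 and 0.33 in WT CMP013 and -0.10, 0.11, -0.06, 0.01 and 0.0026 in WT vehicle animals (0.45 ± 0.12, adjusted p = 0.0266). The groups did not overlap in any of the 3 genes, but 1 treated animal of Psme3 came close to the highest vehicle animal. The call of Psme3 was lost with 7 of the 10 animals left out singly, all but WT CMP013 replicates 3 and 5 and WT vehicle replicate 2 (adjusted p up to 0.0658).

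Nfe2l1 had 0.23, 0.62, 0.58, 0.51 and 0.62 in WT CMP013 animals, against -0.18, 0.16, -0.29, 0.05 and -0.29 in WT vehicle animals. The lowest treated animal lay just above the highest vehicle animal, and the gene rose 1.54-fold (0.62 ± 0.12, adjusted p = 0.00819). Vcp had 0.52, 0.67, 0.54, 0.65 and 0.41 in WT CMP013 and 0.0031, 0.10, -0.01, -0.07 and -0.02 in WT vehicle animals (0.56 ± 0.08, adjusted p = 0.00177), with a clear gap between the groups. The mRNA of Nfe2l1 says nothing of how much NRF1 protein was processed, which was not measured.

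The second comparison asked the same of PXR-KO livers. None of the 44 genes passed the test there (limma, 0 higher and 0 lower), and over all genes 2.5% were called higher and 2.11% lower. A count of 0 of 44 is close to these small shares. At an unadjusted p under 0.05 there were 7 of 44 proteasome genes, against 3920 of all 18193 genes. Their median log2 fold change was 0.05, against -0.02 over all genes. The median over the 44 genes was 0.07, 0.05, 0.08, 0.01 and 0.01 in the 5 PXR-KO CMP013 animals, against 0.07, -0.01, -0.05, 0.0047 and -0.03 in the 5 PXR-KO vehicle animals, and these ranges overlapped. In 3 genes, Psmc3, Psmd8 and Psmd12, every PXR-KO CMP013 animal lay above every PXR-KO vehicle animal, which held for 4.61% of all genes. Each gene had its own 95% confidence interval of the PXR-KO response. The median of the 44 upper bounds was 0.24 and the highest was 1.32, for Psma3. Rises above 0.24 therefore lay inside the interval of some genes. Without PXR-KO vehicle replicates 2 and 4 the count was again 0.

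The genes nearest to a call in PXR-KO livers were Psmd8 and Psma7. Psmd8, the lid subunit Rpn12, had 0.36, 0.43, 0.30, 0.47 and 0.12 in PXR-KO CMP013 animals, against -0.04, 0.04, -0.0017, 0.03 and -0.02 in PXR-KO vehicle animals (0.34 ± 0.09, adjusted p = 0.0666). Every treated animal lay above the vehicle animals, and replicate 5 was the lowest of them. In WT livers the same gene had 0.39, 0.52, 0.44, 0.50 and 0.57 in CMP013 animals, against -0.03, 0.05, 0.05, 0.04 and -0.12 in vehicle animals, and the difference between the 2 responses did not pass (0.15 ± 0.10, adjusted p = 0.389, 95% interval -0.06 to 0.36). Psma7 had 0.37, 0.42, 0.32, 0.39 and 0.06 in PXR-KO CMP013 and 0.11, -0.17, -0.01, 0.03 and -0.28 in PXR-KO vehicle animals (0.38 ± 0.11, adjusted p = 0.0873). For Psma7 4 treated animals stood above all vehicle animals and replicate 5 fell among them. Psmd8 was called higher in PXR-KO livers without PXR-KO CMP013 replicate 5 (adjusted p = 0.0382), with array weights (0.0433), with the mean over probe sets (0.0426) and, with all 4 groups in 1 fit, together with Psma7 and Psmc3 (0.00824 for Psmd8).

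PXR-KO CMP013 replicate 5 stood below its group in several genes of the beta ring. Psmb6 had 0.31, 0.33, 0.29, 0.33 and -0.03 in PXR-KO CMP013 and 0.13, -0.10, -0.05, 0.05 and -0.04 in PXR-KO vehicle animals (0.25 ± 0.10, adjusted p = 0.193). Psmb4 had 0.23, 0.25, 0.23, 0.28 and 0.01 in PXR-KO CMP013 and 0.06, 0.12, -0.07, -0.01 and -0.11 in PXR-KO vehicle animals (0.20 ± 0.09, adjusted p = 0.238). Psmb5 had 0.15, 0.17, 0.22, 0.17 and -0.06 in PXR-KO CMP013 and 0.11, 0.05, -0.11, 0.01 and -0.04 in PXR-KO vehicle animals (0.13 ± 0.09, adjusted p = 0.445). In each of the 3 genes 4 treated animals lay above every vehicle animal and replicate 5 did not, and none passed. No PXR-KO CMP013 animal was the highest of its group for more than 10 of the 44 genes.

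The remaining catalytic subunit and the genes with a special role had small changes in PXR-KO livers, and none passed. Psmb7 had 0.01, 0.09, 0.16, -0.0011 and 0.17 in PXR-KO CMP013 and 0.18, -0.14, -0.11, -0.06 and 0.09 in PXR-KO vehicle animals (0.10 ± 0.09, adjusted p = 0.606). Psmd5 had -0.18, 0.20, 0.10, 0.06 and 0.18 in PXR-KO CMP013 and 0.24, -0.08, 0.04, -0.12 and 0.01 in PXR-KO vehicle animals (0.05 ± 0.11, adjusted p = 0.819). Both sets of values overlapped, and the 95% interval of the Psmd5 response ran from -0.18 to 0.29, far below its WT response of 1.66. Pomp had 0.01, -0.01, 0.16, -0.03 and 0.08 in PXR-KO CMP013 and 0.08, -0.0035, -0.06, -0.03 and -0.0045 in PXR-KO vehicle animals (0.05 ± 0.08, adjusted p = 0.781). Psmd4 had -0.11, -0.06, 0.04, -0.03 and -0.08 in PXR-KO CMP013 and 0.08, 0.04, -0.09, 0.01 and -0.03 in PXR-KO vehicle animals (-0.05 ± 0.08, adjusted p = 0.779). Neither of these 2 genes separated the groups. Vcp had 0.11, 0.02, 0.01, 0.06 and 0.09 in PXR-KO CMP013 and 0.08, -0.07, -0.02, -0.0035 and 0.01 in PXR-KO vehicle animals (0.06 ± 0.07, adjusted p = 0.688). Nfe2l1 had 0.67, -0.51, -0.01, -0.07 and -0.22 in PXR-KO CMP013 and 0.22, 0.18, -0.05, -0.20 and -0.38 in PXR-KO vehicle animals (0.02 ± 0.21, adjusted p = 0.976). Replicate 1 of the treated animals was high and replicate 2 low for Nfe2l1, and the interval of its response was wide, -0.45 to 0.49.

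The genes with the firmest difference between genotypes had changes of at most 0.10 on the log2 scale in PXR-KO livers. A ranking by that difference favours genes with a small PXR-KO response, so these sizes follow in part from the choice. Psma7, further down the ranking, had a called difference with a PXR-KO change of 0.38. Psmd14 had -0.15, -0.03, 0.01, -0.05 and -0.09 in PXR-KO CMP013 and 0.03, 0.13, -0.13, 0.05 and -0.09 in PXR-KO vehicle animals (-0.06 ± 0.08, adjusted p = 0.746). Psmc4 had 0.07, 0.09, 0.16, 0.02 and 0.17 in PXR-KO CMP013 and 0.0008, 0.06, -0.10, 0.09 and -0.02 in PXR-KO vehicle animals (0.10 ± 0.08, adjusted p = 0.525). Psmb2 had 0.05, -0.07, 0.11, -0.01 and -0.02 in PXR-KO CMP013 and 0.08, 0.07, -0.12, 0.09 and -0.11 in PXR-KO vehicle animals (0.01 ± 0.08, adjusted p = 0.964). For all 3 the treated values overlapped the vehicle values. Psmb3 had -0.03, 0.09, 0.06, -0.04 and 0.04 in PXR-KO CMP013 and 0.06, 0.07, -0.08, -0.01 and -0.05 in PXR-KO vehicle animals (0.02 ± 0.08, adjusted p = 0.894). Psme4 had 0.0011, -0.08, 0.07, -0.06 and 0.12 in PXR-KO CMP013 and -0.03, 0.02, 0.02, -0.02 and 0.0006 in PXR-KO vehicle animals (0.01 ± 0.08, adjusted p = 0.947). Psmd1 had 0.01, 0.07, 0.08, 0.07 and 0.25 in PXR-KO CMP013 and 0.02, 0.03, -0.04, 0.07 and -0.07 in PXR-KO vehicle animals (0.09 ± 0.08, adjusted p = 0.553), where replicate 5 was the high animal. Psmd3 had 0.04, -0.04, 0.03, -0.10 and 0.12 in PXR-KO CMP013 and 0.06, -0.01, -0.03, 0.08 and -0.12 in PXR-KO vehicle animals (0.01 ± 0.08, adjusted p = 0.952). The values of all of these genes overlapped between the groups, as did those of Psmd2 (-0.05 ± 0.08, adjusted p = 0.81). Psmc3 was the ATPase whose groups did not overlap, with 0.25, 0.26, 0.19, 0.27 and 0.18 in PXR-KO CMP013 and 0.07, -0.07, -0.04, 0.05 and -0.02 in PXR-KO vehicle animals (0.23 ± 0.07, adjusted p = 0.116).

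The remaining genes described for WT livers had these values in PXR-KO livers. Psma2 had -0.05, 0.09, 0.10, 0.07 and -0.03 in PXR-KO CMP013 and 0.08, -0.02, -0.01, -0.02 and -0.04 in PXR-KO vehicle animals (0.04 ± 0.08, adjusted p = 0.826). Psma6 had 0.15, 0.09, 0.09, 0.10 and -0.02 in PXR-KO CMP013 and 0.05, -0.03, -0.05, 0.03 and 0.0026 in PXR-KO vehicle animals (0.08 ± 0.07, adjusted p = 0.581). Psmb1 had 0.13, 0.07, -0.28, -0.33 and -0.03 in PXR-KO CMP013 and 0.10, -0.40, 0.22, -0.12 and -0.07 in PXR-KO vehicle animals (-0.03 ± 0.14, adjusted p = 0.922). All 3 core genes overlapped between the groups. Psmd2 had 0.07, -0.17, -0.02, -0.17 and 0.07 in PXR-KO CMP013 and 0.01, 0.04, -0.06, 0.04 and -0.03 in PXR-KO vehicle animals. Psmd13 had -0.29, -0.37, 0.11, -0.13 and -0.39 in PXR-KO CMP013 and 0.07, 0.01, -0.0022, -0.15 and -0.04 in PXR-KO vehicle animals (-0.19 ± 0.11, adjusted p = 0.377). Psmc6 had 0.08, 0.33, 0.33, 0.73 and 0.41 in PXR-KO CMP013 and 0.19, -0.70, 0.20, -0.33 and 0.18 in PXR-KO vehicle animals (0.47 ± 0.20, adjusted p = 0.217), where 2 low vehicle animals widened the group. These cap genes overlapped as well. The chaperone Psmg3 had 0.20, 0.05, 0.08, 0.20 and -0.04 in PXR-KO CMP013 and 0.31, -0.20, -0.09, -0.15 and 0.28 in PXR-KO vehicle animals (0.06 ± 0.12, adjusted p = 0.818). Its partner Psmg4 had 0.16, 0.06, 0.24, 0.11 and -0.0034 in PXR-KO CMP013 and -0.0025, 0.09, -0.12, 0.11 and -0.04 in PXR-KO vehicle animals (0.11 ± 0.09, adjusted p = 0.523). Neither of these partners separated the groups. Psmd9 had 0.16, 0.10, 0.10, 0.0033 and 0.10 in PXR-KO CMP013 and 0.14, 0.12, -0.21, -0.14 and -0.19 in PXR-KO vehicle animals (0.15 ± 0.10, adjusted p = 0.432). Psmd10 had 0.10, 0.02, 0.09, 0.21 and 0.01 in PXR-KO CMP013 and 0.11, -0.18, -0.04, -0.04 and 0.07 in PXR-KO vehicle animals (0.10 ± 0.09, adjusted p = 0.558). The groups of both genes overlapped. Psmf1 had -0.25, -0.27, -0.13, -0.14 and -0.02 in PXR-KO CMP013 and 0.18, -0.09, -0.15, 0.03 and -0.12 in PXR-KO vehicle animals (-0.13 ± 0.09, adjusted p = 0.477). Psme3 had 0.09, -0.05, -0.16, -0.05 and -0.12 in PXR-KO CMP013 and 0.27, -0.13, -0.08, 0.01 and -0.22 in PXR-KO vehicle animals (-0.03 ± 0.11, adjusted p = 0.922). The groups overlapped for these 2 genes too.

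**Figure D3:**
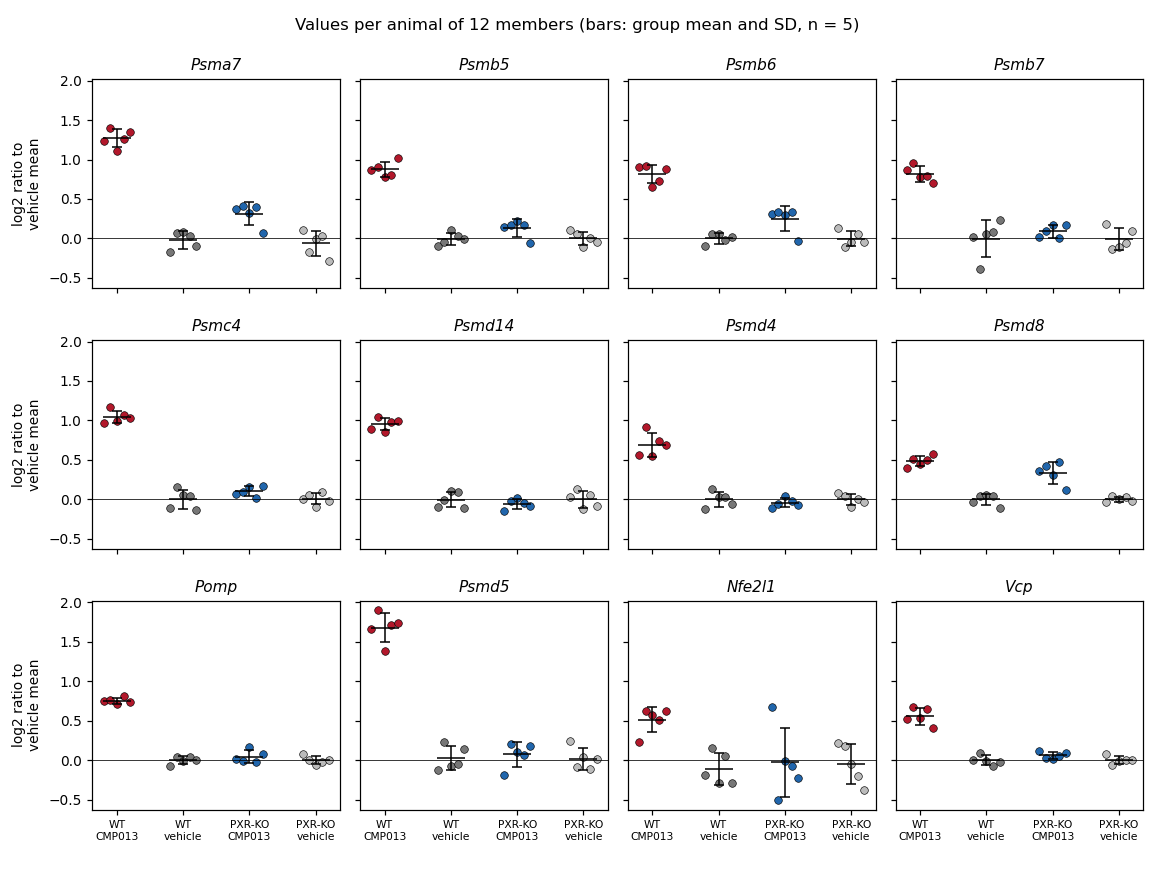
Log2 ratio to the vehicle mean of the same genotype (vertical axis) in each of 5 animals per group for 12 proteasome genes, with bars for the group mean and SD. The WT CMP013 animals stand above the WT vehicle animals in every panel, while the PXR-KO CMP013 animals overlap their vehicle animals in every panel but Psmd8, where replicate 5 is the lowest treated animal at 0.12.

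A call in WT and none in PXR-KO livers does not by itself show that the responses differed, and the difference was therefore tested over all 20 arrays. The response was larger in WT than in PXR-KO livers for 33 of the 44 genes and smaller for 0, where 7.12% of all genes were called in the first direction and 6.1% in the second. The median difference was 0.61, against 0.01 over all genes. Psmd5 led with a difference of 1.60 ± 0.15, adjusted p = 3.28e-06, followed by Psmd14 (1.01 ± 0.10, adjusted p = 5.81e-06), Psmc4 (0.95 ± 0.10, adjusted p = 1.04e-05) and Psma7 (0.91 ± 0.13, adjusted p = 0.000238). All 7 beta subunits, 5 of 6 base ATPases, all 3 other base subunits and all 3 of the other caps and PI31 were among the 33, with 4 of 7 alpha subunits, 6 of 8 lid subunits and 4 of 8 chaperones. Vcp differed (0.50 ± 0.09, adjusted p = 0.00183), whereas Nfe2l1 did not pass (0.61 ± 0.25, adjusted p = 0.132) until PXR-KO CMP013 replicate 1 was left out (0.78, adjusted p = 0.0177). Of the 36 genes that rose in WT livers, Psmd8, Psmg3 and Nfe2l1 had no call for the difference. With replicates 3 and 4 of WT vehicle and 2 and 4 of PXR-KO vehicle left out the count was 28, and with quantile normalisation of the log ratios it was 18, where 2.32% of all genes were called in the same direction. With the mean over probe sets the difference lost its call for Psma1 (0.24, adjusted p = 0.411), Psmd7 (0.11, adjusted p = 0.664) and Psme4 (0.26, adjusted p = 0.248). It was also lost for Psmf1 (0.22, adjusted p = 0.396), Psmc2 (0.26, adjusted p = 0.104) and Psme3 (0.27, adjusted p = 0.273). RNA integrity was 9.3 to 10 in the PXR+/+ and 8.7 to 9.6 in the PXR-/- livers, and its part in the difference was not tested.

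The other 8 genes without a call for the difference were 7 that did not pass in WT livers and Psmd13. For Psma3 the difference was 0.01 ± 0.51, adjusted p = 0.992 and for Psmc6 -0.02 ± 0.30, adjusted p = 0.984, both with wide errors. With a probe set marked _a_, a kind that can match several transcripts, in their place it passed for Psma3 (0.41, adjusted p = 0.00526) and for Psmc6 (0.66, adjusted p = 0.000166). For Psma6 it was 0.15 ± 0.09, adjusted p = 0.292, and for Psma5 0.64 ± 0.23, adjusted p = 0.0805. The Psma5 difference passed with the mean over its probe sets (0.74, adjusted p = 0.000306), with the probe set of largest change (1.00, adjusted p = 3.67e-05), with the other _a_ probe set (0.58, adjusted p = 0.00216), and without WT CMP013 replicate 1 (adjusted p = 0.0479) or replicate 3 (adjusted p = 0.0353). Psmg4 (0.11 ± 0.11, adjusted p = 0.58), Psmd10 (-0.06 ± 0.10, adjusted p = 0.788) and Psmd9 (-0.32 ± 0.14, adjusted p = 0.177) completed the set with Psmd13 (-0.46 ± 0.19, adjusted p = 0.136).

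Set side by side, the sub-complexes had medians of unequal size in WT livers. The WT median was 0.75 over the 14 core subunits, 0.69 over the 17 measured cap subunits and 0.35 over the 8 assembly chaperones. In PXR-KO livers the medians of the same groups were 0.08, 0.02 and 0.06. Within the core the beta ring had a median of 0.86 and the alpha ring one of 0.54 in WT livers. Psma3 (0.40) and Psma5 (0.34) entered the alpha median on unmarked probe sets that did not pass. Their _a_ probe sets were called higher, at 0.43 for Psma3 and 0.60 and 1.01 for Psma5. The alpha median therefore depends on the probe sets used. In single WT CMP013 animals the median of the beta ring ran from 0.74 to 0.91 and that of the alpha ring from 0.48 to 0.83, and the beta ring had the higher median in all 5 animals. The differences between sub-complexes are described only, with no test.

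The calls of 26 genes could be compared over more than 1 probe set. In WT livers every probe set was called higher for 5 of them (Psma7, Psmb3, Psmb4, Psmc4 and Vcp), some were called higher and none lower for 17, and none was called higher for 3 (Psma6, Psmg4 and Psmd9). Psmd13 was the only gene with calls both ways. Its probe set 1422459_a_at had 1.17, 1.18, 0.95, 1.10 and 1.31 in WT CMP013 animals, against -0.04, 0.03, 0.05, 0.04 and -0.06 in WT vehicle animals (log2 fold change 1.14 ± 0.09, adjusted p = 4.77e-05). Probe set 1437220_x_at rose too (0.88 ± 0.09, adjusted p = 0.000321), while 1447843_at did not pass (0.05 ± 0.31, adjusted p = 0.947) and 1445729_at, which stood for the gene, was lower (-0.65 ± 0.16, adjusted p = 0.0209). The direction for Psmd13 is therefore not settled by these arrays. The same kind of probe set, marked _a_ because it can match several transcripts of a gene, was called higher for Psma3 (0.43 ± 0.07, adjusted p = 0.00324), Psma5 (1.01 ± 0.09, adjusted p = 0.000124 and 0.60 ± 0.09, adjusted p = 0.00254) and Psmc6 (0.69 ± 0.08, adjusted p = 0.000721), whose unmarked probe sets did not pass. For Psmd9 the other probe sets lay lower still, and 1447670_at was called lower (-1.09 ± 0.27, adjusted p = 0.0246). Averaged over probe sets, the WT call was lost (limma) for Psmd7 (0.20, adjusted p = 0.287), Psma1 (0.43, adjusted p = 0.0675) and Psmc2 (0.28, adjusted p = 0.0699). It was also lost for Psmg2 (0.24, adjusted p = 0.0722), Psmg3 and Psmf1. The other 31 of the 37 calls were kept, that of Psmd13 with its direction turned, and 3 genes gained a call.

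**Figure D4:**
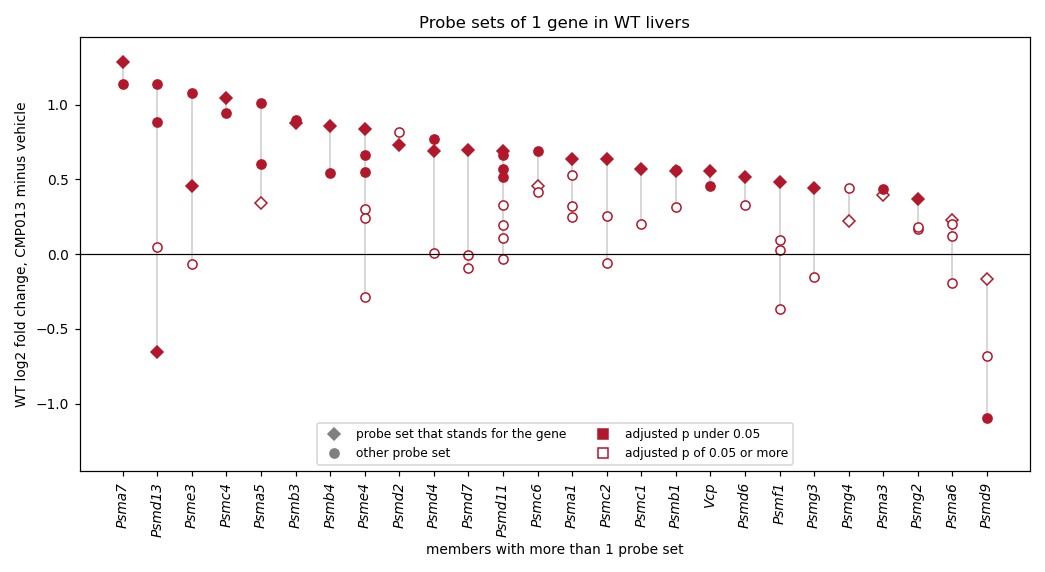
WT log2 fold change of CMP013 minus vehicle (vertical axis) for every probe set of the 26 proteasome genes with more than 1, with diamonds for the probe set that stands for the gene and filled symbols for an adjusted p under 0.05. Psmd13 spans from -0.65 to 1.14, and only Psmd13 and Psmd9 have a filled symbol below 0.

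Over all 97 probe sets of the proteasome genes, 55 were higher and 2 lower in WT livers, where 7.67% of all probe sets were higher and 6.72% lower. In PXR-KO livers 0 of the 97 passed (limma), with 17 at an unadjusted p under 0.05. The difference between the genotypes was called for 49, all larger in WT. Shares over all probe sets were not computed for these 2 comparisons. With 1 probe set per gene, 2.5% of all genes were called higher and 2.11% lower in PXR-KO livers. There 3920 of 18193 genes had an unadjusted p under 0.05. The difference was called larger in WT for 7.12% of all genes and smaller for 6.1%. The median log2 fold change over the 97 probe sets was 0.51 in WT and 0.05 in PXR-KO livers.

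Inducible subunits replace their constitutive counterparts in the immunoproteasome. Of 4 measured genes, among them the inducible activator, 1 passed in WT livers and 1 in PXR-KO livers. Psme1, a subunit of the interferon-inducible activator PA28, rose in WT livers (0.44 ± 0.08, adjusted p = 0.0058), and in PXR-KO livers Psmb9, a catalytic subunit, fell (-0.67 ± 0.15, adjusted p = 0.0355). The median of the 4 was 0.14 in WT and -0.26 in PXR-KO livers. The response of Psme1 differed between genotypes (0.65 ± 0.10, adjusted p = 0.000417), and that of Psmb9 did not pass (0.48 ± 0.23, adjusted p = 0.195).

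Enzymes and shuttles that work on the proteasome rose in part. Of 12 measured genes 6 were higher and 0 lower in WT livers, with a median of 0.31. Usp14, a deubiquitinase that sits on the base, rose most (0.89 ± 0.10, adjusted p = 0.000446), and Txnl1, a thioredoxin-like protein bound to the cap (0.54 ± 0.08, adjusted p = 0.00161), Ubqln2, a shuttle for tagged proteins (0.68 ± 0.10, adjusted p = 0.00203), and Ecpas, an adaptor of the 26S proteasome (0.76 ± 0.16, adjusted p = 0.0115), rose as well. In PXR-KO livers 0 of 12 passed (limma), Usp14 coming nearest (0.33 ± 0.09, adjusted p = 0.0664). The difference between genotypes was called for 5, with Txnl1 at 0.56 ± 0.09, adjusted p = 0.00065 and Usp14 at 0.56 ± 0.12, adjusted p = 0.00591.

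Among the cofactors of p97, 8 of 15 rose and 1 fell in WT livers, with a median of 0.40. Ubxn4, which tethers p97 to the endoplasmic reticulum, rose most (1.17 ± 0.10, adjusted p = 0.000105), and Faf1 (0.66 ± 0.07, adjusted p = 0.000445), Plaa (0.76 ± 0.10, adjusted p = 0.00104) and Nploc4, the Npl4 partner of Ufd1 (0.83 ± 0.12, adjusted p = 0.00175), rose too, while the chaperone-linked ligase Stub1 fell (-0.48 ± 0.12, adjusted p = 0.026). In PXR-KO livers Ubxn1 fell (-0.45 ± 0.08, adjusted p = 0.0168) and 0 rose. The response was larger in WT than in PXR-KO livers for 7 of the 15 and smaller for 2, led by Faf1 (0.77 ± 0.10, adjusted p = 6.36e-05) and Ubxn4 (1.11 ± 0.15, adjusted p = 9.53e-05) among the first and by Stub1 (-0.80 ± 0.15, adjusted p = 0.00156) among the second.

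The genes that process NRF1 or bind DNA with it moved less as a group, with 3 of 9 higher in WT livers and a median of 0.12. Mafk, a small Maf partner, rose in livers of WT mice (0.86 ± 0.09, adjusted p = 0.000225) and also in those of PXR-KO mice (0.53 ± 0.12, adjusted p = 0.0447), and the 2 responses did not pass the test of their difference (0.33 ± 0.14, adjusted p = 0.162). Syvn1, a ligase of the endoplasmic reticulum (0.54 ± 0.12, adjusted p = 0.0163), and Ngly1, the glycanase that edits NRF1 (0.26 ± 0.08, adjusted p = 0.0495), rose in WT livers, and only the response of Ngly1 differed between genotypes (0.30 ± 0.09, adjusted p = 0.0444).

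Ubiquitin-conjugating enzymes had no common direction. Of 25 measured genes 3 rose and 2 fell in WT livers, with a median of -0.06. Cdc34 (0.92 ± 0.08, adjusted p = 0.000113) and Ube2k (0.77 ± 0.09, adjusted p = 0.000481) rose, and Ube2e3 (-0.38 ± 0.07, adjusted p = 0.00548) and Ube2d3 (-0.40 ± 0.08, adjusted p = 0.00862) fell. In PXR-KO livers 1 of 25 fell, Ube2h (-0.60 ± 0.09, adjusted p = 0.0103), and 0 rose. The difference between genotypes was called for 3 as larger in WT, among them Cdc34 (0.88 ± 0.11, adjusted p = 3.39e-05) and Ube2k (0.78 ± 0.12, adjusted p = 0.000286), and for 4 as smaller. Of the ubiquitin genes and activating enzymes only Uba6 could be measured, and it did not pass in either genotype.

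Targets of Nrf2, the relative of NRF1 that answers oxidative and electrophilic stress through the same kind of element, were called in both genotypes. In WT livers 5 of 9 rose, among them Srxn1 (1.88 ± 0.12, adjusted p = 2.02e-05), Nqo1 (1.31 ± 0.12, adjusted p = 0.000137), Pgd (0.91 ± 0.12, adjusted p = 0.00118) and Txnrd1 (0.35 ± 0.09, adjusted p = 0.0266). In PXR-KO livers 3 of 9 rose: Hmox1 (1.51 ± 0.19, adjusted p = 0.00482), Txnrd1 (0.51 ± 0.08, adjusted p = 0.00982) and Nqo1 (0.87 ± 0.19, adjusted p = 0.0383). The part of Nrf2 in the proteasome result was not tested. The responses differed for Pgd (1.29 ± 0.16, adjusted p = 3.55e-05), Srxn1 (1.32 ± 0.18, adjusted p = 0.000129) and Taldo1 (0.63 ± 0.11, adjusted p = 0.00139), larger in WT, and for Hmox1 (-1.57 ± 0.24, adjusted p = 0.000397), smaller in WT.

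**Figure D5:**
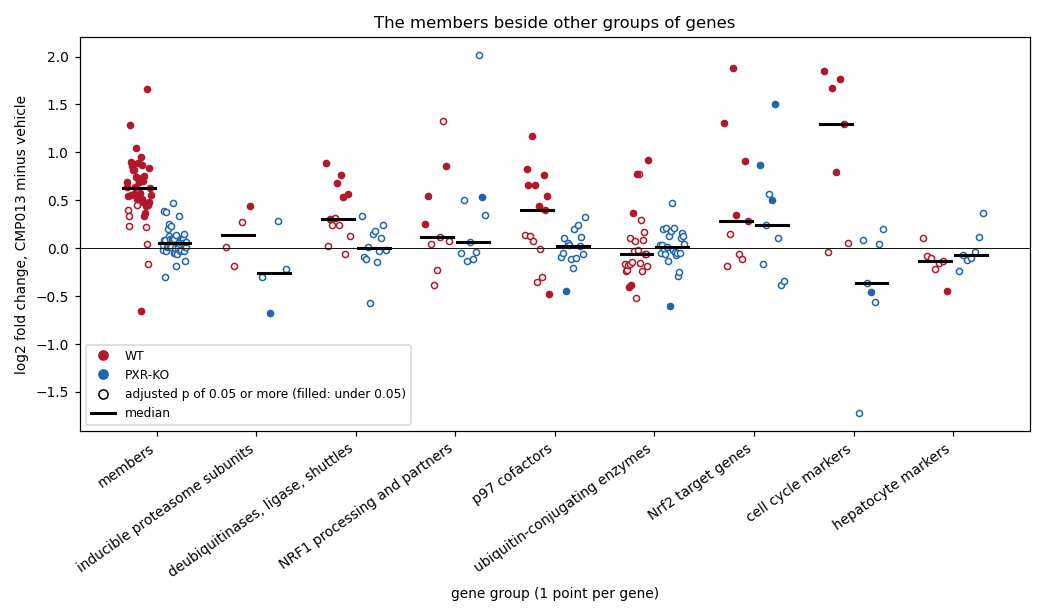
Log2 fold change of CMP013 minus vehicle (vertical axis) for each gene of the proteasome set and of 8 other groups, with WT in red left of PXR-KO in blue, filled where the adjusted p was under 0.05, and with black bars for medians. The proteasome genes have medians of 0.63 in WT and 0.05 in PXR-KO livers, and the cell cycle markers have medians of 1.30 and -0.36.

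Markers of cell types give the tissue in which these changes were read. A liver holds several cell types, and in bulk tissue fewer cells of a type and less RNA per cell cannot be told apart. Of 7 hepatocyte markers 6 did not pass and 1, Hnf4a, was lower in WT livers (-0.45 ± 0.11, adjusted p = 0.0199), and the median of the list in single animals was -0.18 to -0.06 in WT CMP013 and -0.07 to 0.06 in WT vehicle livers. Among 7 cell cycle markers 5 rose in WT livers, including Mki67 (1.85 ± 0.48, adjusted p = 0.0279) and Ccna2 (0.80 ± 0.13, adjusted p = 0.00292). The median of the list in single animals was 0.64 to 1.71 in WT CMP013 and -0.58 to 0.20 in WT vehicle livers. In PXR-KO livers 0 of 7 rose and Ccna2 fell (-0.45 ± 0.08, adjusted p = 0.0201), with list medians of -0.56 to -0.09 in PXR-KO CMP013 and -0.29 to 0.13 in PXR-KO vehicle livers. The part of dividing cells in the proteasome result was not tested.

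Calls among the markers of other cells were few. Of 8 macrophage markers 2 were lower in WT livers, Csf1r (-0.58 ± 0.11, adjusted p = 0.00723) and Clec4f (-0.39 ± 0.10, adjusted p = 0.0322), and 2 were higher in PXR-KO livers, Cd68 (1.11 ± 0.13, adjusted p = 0.00381) and Marco (4.22 ± 0.64, adjusted p = 0.00894). The list median in single animals was -0.57 to -0.10 in WT CMP013 and -0.27 to 0.18 in WT vehicle livers, and -0.14 to 0.31 in PXR-KO CMP013 and -0.32 to 0.50 in PXR-KO vehicle livers. Of 5 endothelial markers Stab2 (-0.63 ± 0.09, adjusted p = 0.00154) and Kdr (-0.48 ± 0.10, adjusted p = 0.0105) were lower in WT livers, and in PXR-KO livers Lyve1 was higher (1.12 ± 0.14, adjusted p = 0.00482) and Kdr lower (-0.41 ± 0.10, adjusted p = 0.0469). The median change of the endothelial list was -0.15 in WT and -0.26 in PXR-KO livers, where only Lyve1 lay above 0. Of 5 stellate cell markers Lrat was lower in WT livers (-0.71 ± 0.12, adjusted p = 0.00389) and 0 passed in PXR-KO livers. In WT livers 3 of these 5 lay above 0, and the median change of the list was 0.05 in WT and -0.23 in PXR-KO livers. None of 7 lymphocyte and 4 biliary markers passed in either genotype (limma). With ratios alone, whether a marker was present at a high or low level could not be seen, and the part of these cells in the result was not tested.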

How the data were processed

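Liver RNA of 20 mice, 5 per group, was profiled on Affymetrix Mouse430_2 arrays, 1 array per animal. The authors divided the intensity of each animal by the average of the vehicle group of its genotype (5 animals) in Rosetta Resolver, and deposited log10 ratios, which lie within a limit of 2 on either side of 0. Over the vehicle animals the median of the mean ratio was 1.00 in both genotypes. The method of background correction and probe summary was not given in the sources used here. Intensities, detection calls and signal over background were not used. Dim probe sets were therefore kept, and the number of arrays limits the precision. All 20 columns were used.

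Values were multiplied to the log2 scale and tested with limma (version 3.58.1, R 4.3.3; lmFit and eBayes) across 45037 probe sets with Benjamini-Hochberg adjustment over all of them and a threshold of 0.05. CMP013 was compared with vehicle within each genotype on 10 arrays, and the WT response with the PXR-KO response on 20. Each gene was represented by 1 probe set naming no other gene in the platform annotation, unmarked ones before those marked _a_, _s_ or _x_, then the smallest SD within the vehicle groups. Errors are SE of the fit. Fits were tested on simulated data.

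The members and the other gene lists were chosen with earlier results of these data known, and they support nothing beyond their description. Values per animal were given for the 2 genes with the largest and the 1 with the smallest WT change of each sub-complex, for Psmb5, Psmb6, Psmb7, Psmd4, Pomp, Nfe2l1 and Vcp, for up to 10 genes called for the difference, and, chosen after their values were seen, for PXR-KO livers of Psmd8, Psma7, Psmb4 and Psmc3. Of the other lists up to 4 genes with the smallest adjusted p per comparison were named. Promoters came from RefSeq, with up to 6 called genes shown where the match lay before the start site. Figures were drawn with matplotlib 3.10.9.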

Additional observations from a re-analysis of the deposited data

Results flagged for a closer look

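The response to CMP013 was larger in WT than in PXR-KO livers for 33 proteasome genes by the test of the difference itself (limma, adjusted p under 0.05), on the log2 scale of WT response minus PXR-KO response. Among the alpha subunits the difference was 0.65 for Psma1, 0.65 for Psma2, 0.46 for Psma4 and 0.91 for Psma7. Among the beta subunits the difference was 0.59 for Psmb1, 0.89 for Psmb2, 0.85 for Psmb3, 0.66 for Psmb4, 0.76 for Psmb5, 0.57 for Psmb6 and 0.72 for Psmb7. Among the base ATPases the difference was 0.55 for Psmc1, 0.62 for Psmc2, 0.51 for Psmc3, 0.95 for Psmc4 and 0.40 for Psmc5. Among the other base and lid subunits it was 0.79 for Psmd1, 0.77 for Psmd2, 0.74 for Psmd4, 0.85 for Psmd3, 0.52 for Psmd6, 0.63 for Psmd7, 0.69 for Psmd11, 0.43 for Psmd12 and 1.01 for Psmd14. Among the remaining genes it was 0.37 for Psmg1, 0.39 for Psmg2, 0.70 for Pomp, 1.60 for Psmd5, 0.48 for Psme3, 0.83 for Psme4, 0.61 for Psmf1 and 0.50 for Vcp. With each of the 20 animals left out singly, the call was lost in 9 cases for Psmb1 (adjusted p up to 0.0664), in 17 for Psmg1 (up to 0.0881) and in 15 for Psme3 (up to 0.0863).

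In 10 of 176 groups of 5 animals, 1 animal lay far from the other 4 by Dixon's criterion, where chance alone gives about 1 in 20 groups. Of these 10, 5 were PXR-KO CMP013 replicate 5, with a log2 ratio of 0.0641 for Psma7, 0.0093 for Psmb4, -0.0582 for Psmb5 and -0.0327 for Psmb6, all low, and of 0.25 for Psmd1, which was high. PXR-KO vehicle replicate 1 was high for Psma2 (0.0845) and Psmg1 (0.10), PXR-KO vehicle replicate 4 was high for Psmd11 (0.18), WT vehicle replicate 2 was high for Psmd12 (0.14) and WT CMP013 replicate 1 was low for Nfe2l1 (0.23). Without PXR-KO CMP013 replicate 5, 1 proteasome gene, Psmd8, was called in PXR-KO livers (0.39, adjusted p = 0.0382).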

How the results depend on the processing

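The count of 37 called proteasome genes in WT livers was 25 to 40 over all alternatives. It was 30 with a replicate block, and 34 to 36 with each animal left out in turn. After quantile normalisation it was 25, all higher, where 2.87% of all genes were called higher, against 9.36% without it. The calls lost there were those of Psmb1, Psmb7, Psmc5, Psmd6, Psmd8, Psmd13, Psmg1, Psmg2, Psmg3, Psme3, Psmf1 and Nfe2l1. The count of 0 in PXR-KO livers was 1 with array weights, 3 with all 4 groups in 1 fit, 1 with the mean over all probe sets, and 0 to 1 with each animal left out, and 0 under the others. The count of 33 for the difference was 18 with quantile normalisation, where the calls over all probe sets fell too, to 1231, and 26 with the block, 28 without WT vehicle 3 and 4 and PXR-KO vehicle 2 and 4, and 30 to 33 with each animal left out. Replicate numbers did not pair the samples: the correlation of same-numbered deviations was -0.24 to 0.07, and no animal matched best with its own number. The direction turned for Psmd13 in WT livers (0.35 with the mean over probe sets, 1.14 with the probe set of largest change and also, in a ranking chosen after seeing the data, with _a_ probe sets ranked as unmarked), and under those last 2 rules for the difference of Psmd13 (0.78) and Psmc6 (0.66), since another probe set then stood for the gene. Differences without a call under either setting also turned: Psmd13 (0.24) and Psma6 (-0.12) with the mean over probe sets, Psma6 (-0.66) with the probe set of largest change, and Psma3 and Psmc6, near 0, under several settings. In WT livers the calls of Psmg1 and Psme3 were the ones most often lost. The number of arrays, 5 per group, limits the precision, and signal over background was not used.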
